A study of Arabidopsis thaliana with 4 samples.

Results

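Plastid-encoded genes for gene expression and housekeeping were described on whole-genome expression arrays of Arabidopsis thaliana. They are the genes of the plastid genome whose symbols begin with rpo, rps, rpl or ycf, together with matK, clpP, accD, ccsA and cemA. Membership required a probe set, the group of probes that reports on a transcript, listed to that gene alone, and no measured value was used. The rule found 26 genes, with 1 probe set each, among 22810 probe sets in all and 69 plastid-encoded genes. They comprise 4 RNA polymerase genes, 8 genes of the small ribosomal subunit, 7 of the large ribosomal subunit and 7 with other functions. A further 7 probe sets of plastid genes with such symbols are listed to several genes and were not used.

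The labels name 4 groups of plants. RNAi groups 1, 2 and 3 carried an inverted repeat made from the coding sequence of myosin XI-K, a motor protein that moves along actin filaments, which is meant to silence that gene by RNA interference (RNAi). The control group carried a transgene that constantly expresses GUS, a bacterial reporter enzyme. Every group is 1 array hybridised with total RNA from rosette leaves, cauline leaves and flowers mixed in the same amounts. The labels used here give no age or growth condition, and do not say which promoter drove the repeat or how many plants were pooled.

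The control column and the column of RNAi group 1 hold the same value in all 22810 rows, and are treated here as 1 sample, the shared array. Which of the 2 groups of plants it measured cannot be read from the labels. RNAi groups 2 and 3 (n = 2) were set against it (n = 1), and no difference is assigned to silencing. The silenced gene could not be checked against the labels, since none of the named probe sets is listed to myosin XI-K. The values are signals on a linear scale from GCOS and MAS5, scaled before deposit so that trimmed means lay at 500.05 to 500.06. Differences are log2 ratios of signals, where -1 is a halving. The test was limma over 15922 probe sets above a filter on dim signals, adjusted by Benjamini and Hochberg, at a threshold of 0.05. It passed 5 probe sets as higher in the RNAi groups (0.0314%) and 0 as lower (0%), and at an unadjusted p under 0.05 there were 147 higher and 48 lower.

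The plastid is the organelle of photosynthesis and keeps a small genome inherited from a cyanobacterium. That genome is read by a bacterial-type RNA polymerase, whose core subunits are plastid genes themselves, and by phage-type polymerases encoded in the nucleus. In tobacco most photosynthesis genes are read by the plastid-encoded polymerase, whereas rpoB and its downstream genes and accD are read by the nucleus-encoded polymerase. Plastid genes are mostly transcribed as runs of several neighbours, and plastid RNAs lack the long stable poly(A) tails of nuclear messenger RNAs. Array labelling of this kind starts from poly(A), so the signals are relative values for each probe set and levels are not compared between genes. Whether the labelled share of plastid RNA differed between arrays was not tested.

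The members spread widely in RNAi group 2, from -1.28 for rpl16 to 0.55 (0.545) for accD on the log2 scale. Of the 26, 17 were lower and 9 higher in RNAi group 2 than on the shared array, with a median difference of -0.40. Over all 15922 probe sets 46.5% were lower and the median was 0.04. The lowest 5 values, of rpl16, rpl14, rpl22, rpl36 and rpoA, came from a run of neighbouring genes from rps19 to rpoA. The median was -1.15 for the 7 measured genes of that run and 0.00 (-0.001) for the other 19 members. In RNAi group 3 the members lay on 1 side, with 25 of 26 members lower than on the shared array and a median of -0.41, against 46.6% lower and a median of 0.04 (0.039) over all probe sets. Between the RNAi groups, 14 members were higher and 12 lower in group 3 than in group 2, with a median of 0.06, near the 49.3% higher and 50.7% lower among all probe sets.

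**Figure D1:**
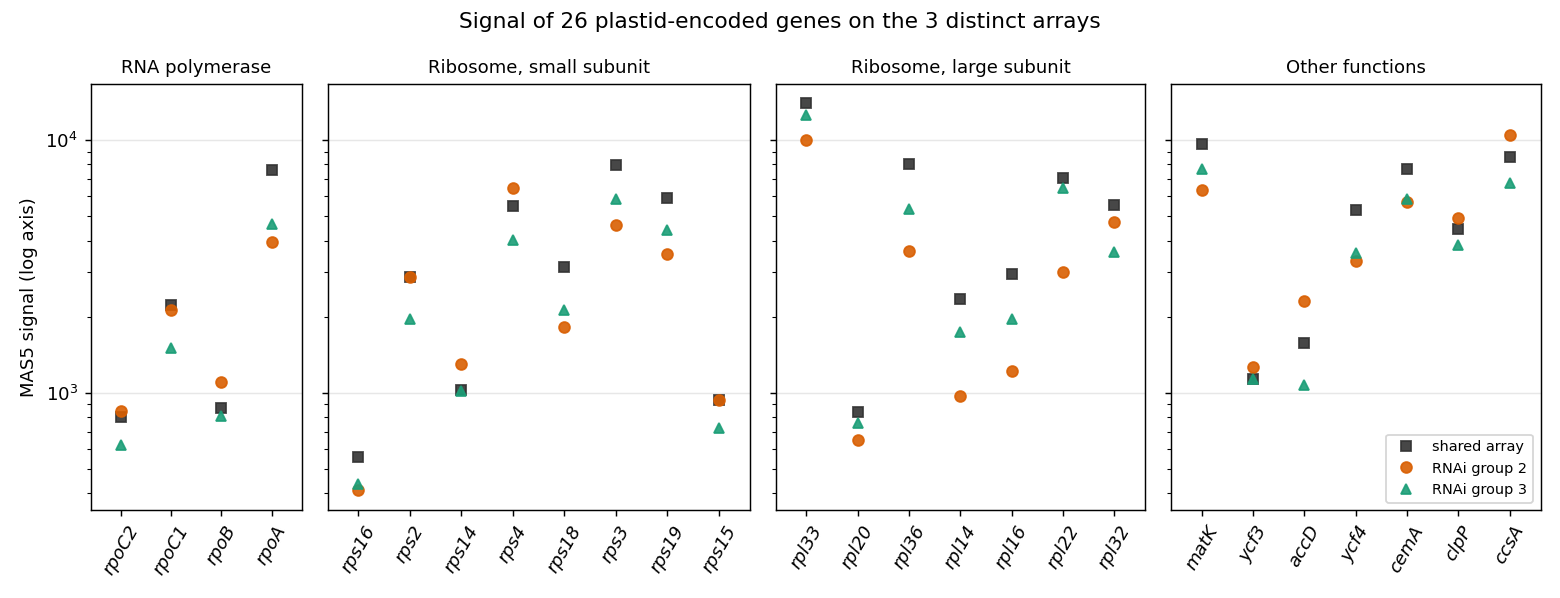
MAS5 signal (log axis) of the 26 genes on the shared array, RNAi group 2 and RNAi group 3, in 4 panels by function, with 1 point per gene and array and no error bars because each array is a lone measurement. The large-subunit genes are lowest in RNAi group 2 except rpl32, while rpoB, rpoC2, rps2, rps4, rps14, accD, clpP, ccsA and ycf3 are highest there.

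All 26 members passed the filter, with signals from 409.9 to 14010.8, and 0 of them passed limma in either direction. Each had an adjusted p of 0.9999 in limma, the smallest unadjusted p was 0.119 (rpl16), and 0 of 26 were under 0.05 before adjustment. Standard errors ran from 0.49 to 0.60 on the log2 scale. For 17 of the 26 members both RNAi arrays lay below the shared array, against 23.3% of all probe sets. For 1, ycf3, both lay above it, against 30.2% of all probe sets. Among the 43 plastid-encoded photosynthesis genes both RNAi arrays lay below the shared array for 20 and above it for 0. The count of 17 was 10 of 19 without the genes from rps19 to rpoA. It was 1 when each array was centred on the median signal of the plastid-encoded photosynthesis genes, which raised every probe set by 0.717 in RNAi group 3 against the shared array. The share over all probe sets was not counted under that centring.

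The fold differences were read array by array. In RNAi group 2, 4 members were at least 2-fold lower than on the shared array (3.76% of all probe sets) and 0 at least 2-fold higher (6.29%). In RNAi group 3, 0 were 2-fold lower (3.95%) and 0 higher (3.81%). Between the RNAi groups, rpl22 was at least 2-fold higher in group 3 (7.31% of all probe sets) and accD at least 2-fold lower (9.54%). At 1.5-fold the counts in RNAi group 2 were 10 lower (12.5% of all) and 0 higher (16%), and in RNAi group 3 they were 4 lower (11.5%) and 0 higher (12.4%). At that size 3 members were higher in group 3 than in group 2 (18.9%) and 3 lower (20.5%).

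The 4 polymerase genes encode the core subunits of the plastid enzyme: rpoA the alpha subunit, rpoB the beta subunit, and rpoC1 and rpoC2 the divided beta-prime subunit. The rpoA gene stood apart from the others. Its signal was 7622.8 on the shared array, 3944.9 for group 2 and 4632.7 for group 3, so the shared array was the highest and group 2 had 51.8% of its level. The rpoB signal was 869.5 on the shared array, 1103.0 for group 2 and 809.8 for group 3. The rpoC1 signal was 2217.5, 2121.2 and 1504.3 in the same order. The rpoC2 signal was 802.0, 845.9 and 618.7. In these 3 genes RNAi group 2 lay close to or above the shared array and RNAi group 3 was the lowest array.

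On the log2 scale the mean of the RNAi groups differed from the shared array by -0.83 for rpoA (SE 0.50), 0.12 for rpoB (SE 0.52), -0.31 for rpoC1 (SE 0.52) and -0.15 for rpoC2 (SE 0.52). All 4 had a limma adjusted p = 0.9999, and the smallest unadjusted p was 0.131, for rpoA. Between the RNAi groups, rpoB, rpoC1 and rpoC2 were lower in group 3 by nearly the same amount, with log2 differences of -0.45, -0.50 and -0.45. The rpoA gene differed by 0.23 in the other direction. Whether rpoA differed in this from the other subunits was not tested. Centring on the photosynthesis genes raised every probe set in this comparison by 0.766, to a median of 0.755 over all, and rpoB, rpoC1 and rpoC2 then differed by 0.27 to 0.32, still below that median.

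The 8 genes of the small subunit, the ribosome part that reads the messenger RNA, followed both courses. The rps3 signal was 7930.1 on the shared array, 4599.4 for group 2 and 5827.0 for group 3. The rps19 signal was 5904.6, 3524.4 and 4386.2, and group 2 was again the lowest array. The rps18 signal was 3137.8, 1817.7 and 2115.5. For these 3 genes RNAi group 2 held 57.9% to 59.7% of the shared level and group 3 held 67.4% to 74.3%. The mean log2 differences were -0.62 for rps3, -0.59 for rps19 and -0.68 for rps18, with SE of 0.50 to 0.51.

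Other genes of the small subunit lay level or higher in RNAi group 2. The rps4 signal, of a protein that starts small-subunit assembly in Escherichia coli, was 5456.8 on the shared array, 6428.6 for group 2 and 4000.2 for group 3. The rps14 signal was 1025.1, 1291.8 and 1016.8, so group 2 was the highest array and group 3 close to the shared one. The rps2 signal was 2867.4, 2880.6 and 1957.7, with only group 3 set apart. The rps15 gene behaved similarly in these values, with 932.1, 931.4 and 724.6. The rps16 gene had 557.0, 409.9 and 435.7, with both RNAi groups below the shared array. Between the RNAi groups the 2 lowest log2 differences in this subunit were -0.68 for rps4 and -0.56 for rps2, and the 2 highest were 0.34 for rps3 and 0.32 for rps19.

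The 7 genes of the large subunit, the part that joins amino acids, had the lowest median of the 4 classes in RNAi group 2. Their median log2 difference was -1.15 in RNAi group 2 and -0.44 in RNAi group 3, all 7 being lower in each. The direction in RNAi group 2 was the same under quantile normalisation, median centring and centring on photosynthesis genes. In RNAi group 3 the last of these raised every probe set by 0.717, so that the large-subunit median became 0.28 (0.281) against 0.756 over all probe sets. The rpl16 signal was 2949.7 on the shared array, 1217.0 for group 2 and 1948.2 for group 3. The rpl14 signal was 2340.9, 969.6 and 1730.4. The rpl36 signal was 8019.7, 3618.8 and 5310.6. In these 3 genes group 2 held 41.3% to 45.1% of the shared level, and group 3 lay between the other arrays.

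The protein of rpl22 lines the exit tunnel of the ribosome in Escherichia coli. Its signal was 7049.4 on the shared array, 3007.6 for group 2 and 6454.8 for group 3, so only group 2 was set apart, at 42.7% of the shared level. Of the 26 members, rpl22 had the largest ratio of group 3 to group 2, 2.15-fold. Mean log2 differences from the shared array were -0.94 for rpl16 (SE 0.54), -0.87 for rpl36 (SE 0.52), -0.85 for rpl14 (SE 0.56) and -0.68 for rpl22 (SE 0.59), each with a limma adjusted p = 0.9999. The other 3 large-subunit genes lay closer to the shared array in RNAi group 2. The rpl33 signal, of a protein that tobacco needs for full growth in the cold, was 14010.8, 10027.0 and 12557.6, and rpl20 had 840.9, 650.2 and 758.7. The rpl32 signal was 5545.3, 4733.8 and 3616.1, and rpl32 was the one large-subunit gene lower in group 3 than in group 2. Its log2 difference of -0.62 in RNAi group 3 was the lowest of the 7.

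The 7 members with other functions had a median log2 difference of 0.15 in RNAi group 2 and -0.34 in RNAi group 3. The gene accD encodes a subunit of acetyl-CoA carboxylase, the enzyme that starts fatty acid synthesis. Its signal was 1576.6 on the shared array, 2300.5 for group 2 and 1068.4 for group 3, with the RNAi groups on either side of the shared array. It had the largest difference between the RNAi groups in the negative direction, 2.15-fold (log2 difference -1.11), and a mean log2 difference from the shared array of -0.01 (SE 0.60). The ccsA signal, of a factor that attaches haem to c-type cytochromes, was 8580.6, 10479.1 and 6780.4, in the same order of arrays. The clpP signal, of the proteolytic subunit of the Clp protease, was 4442.5, 4911.4 and 3844.6, and again group 2 was highest and group 3 lowest.

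The photosystem I assembly factors ycf3 and ycf4 differed from each other. The ycf3 signal was 1135.0 on the shared array, 1266.6 for group 2 and 1136.4 for group 3, and its mean log2 difference was 0.08 (SE 0.50). The ycf4 signal was 5286.7, 3321.0 and 3558.0, with both RNAi groups near 65% of the shared level at 62.8% and 67.3% (mean log2 difference -0.62, SE 0.50). The gene cemA, which encodes a protein of the chloroplast envelope, had 7659.7, 5694.3 and 5818.8. The matK signal, of a maturase that helps to splice plastid introns, was 9598.7, 6313.4 and 7669.7. In ycf4, cemA and matK the shared array was the highest, and the RNAi groups differed by 0.03 to 0.28 on the log2 scale.

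**Figure D2:**
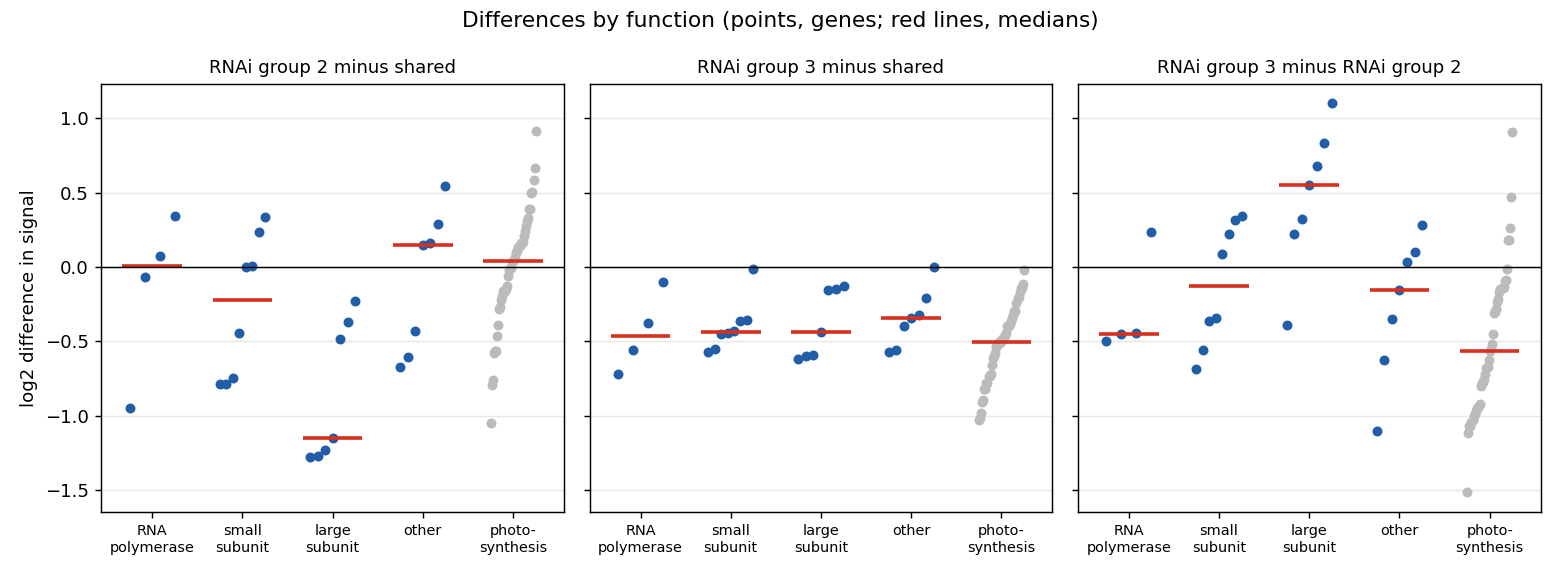
Log2 difference in signal for each gene (points) and the median (red line) of the RNA polymerase, small-subunit, large-subunit and other members and of 43 plastid-encoded photosynthesis genes, in 3 panels for the pairs of arrays. The large-subunit median is -1.15 in RNAi group 2 against the shared array and 0.55 in RNAi group 3 against group 2, where the photosynthesis median is -0.57.

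The 5 members furthest below the shared array in RNAi group 2 lie near each other in the plastid genome. The genes from rps19 to rpoA belong to a cluster of ribosomal protein genes ordered largely as in bacteria. In the plastid the run ends with rpoA, the gene of the polymerase alpha subunit. The reference order gives the run 11 genes from rpl23 to rpoA, of which 7 have a probe set of their own: rps19, rpl22, rps3, rpl16, rpl14, rpl36 and rpoA. In RNAi group 2 these 7 lay between -1.28 and -0.74 from the shared array, and in RNAi group 3 between -0.72 and -0.13. All 7 were higher in group 3 than in group 2, by 0.23 to 1.102, and this direction was the same under quantile normalisation and median centring. The cluster was set apart after its values were seen, so these counts have no test.

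The same genes can be split by function and by position. The 6 ribosomal protein genes in it had a median of -1.19 in RNAi group 2, and the 9 outside it had -0.23. The large-subunit genes had a median of -1.25 inside (4 genes) and -0.37 outside (3 genes), and the small-subunit genes -0.77 (-0.765; 2 genes) and 0.00 (6 genes). The polymerase genes were divided in the same way, with -0.95 for rpoA and a median of 0.08 for rpoB, rpoC1 and rpoC2, which lie together elsewhere in the genome.

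**Figure D3:**
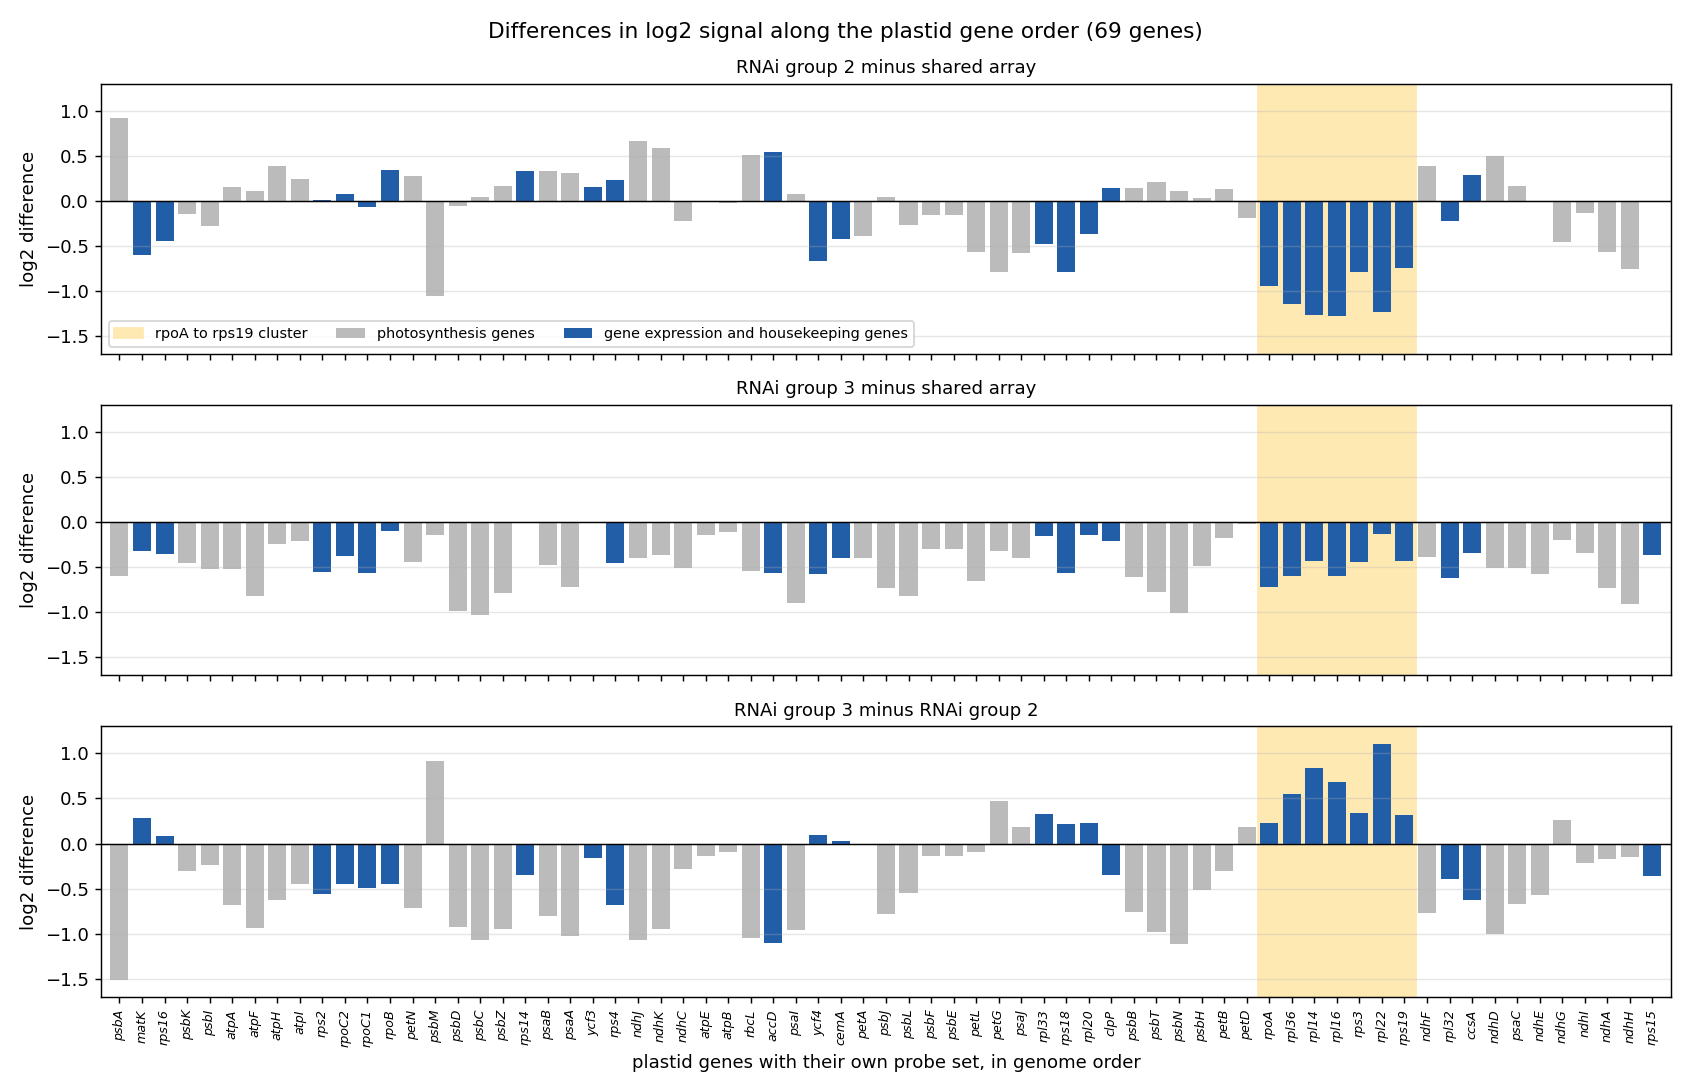
Log2 difference in signal for 69 plastid genes with their own probe set, ordered along the plastid genome, for RNAi group 2 minus the shared array (top), RNAi group 3 minus the shared array (middle) and RNAi group 3 minus group 2 (bottom). Bars are single array differences. The shaded genes from rpoA to rps19 lie between -1.28 and -0.74 at the top and between 0.23 and 1.102 at the bottom.

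Several neighbours outside the cluster had values of the same sign across functional classes in at least 1 comparison. The gene rps14 follows the photosystem I genes psaA and psaB, and in RNAi group 2 the 3 differed from the shared array by 0.33, 0.31 and 0.33. In RNAi group 3 they parted, with -0.01 for rps14, -0.72 for psaA and -0.47 for psaB. The gene rps2 precedes the ATP synthase genes atpI, atpH, atpF and atpA. In RNAi group 3 against group 2, rps2 differed by -0.56 and those 4 genes by -0.45 to -0.93. The photosynthesis genes as a whole had a median of -0.57 in that comparison. In RNAi group 3 against the shared array, rps2 was at -0.55 and the 4 genes ran from -0.21 for atpI to -0.82 for atpF. The genes rpl33 and rps18 follow the photosystem I gene psaJ. These 3 were at -0.48, -0.79 and -0.58 in RNAi group 2 and higher in group 3 than in group 2 by 0.32 (0.325), 0.22 and 0.18.

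The run from accD to petA held unlike values. In RNAi group 2, accD was at 0.55 (0.545) and psaI, a photosystem I gene, at 0.07, whereas ycf4 was at -0.67, cemA at -0.43 and petA, the gene of cytochrome f, at -0.39. Between the RNAi groups accD and psaI differed by -1.11 and -0.97 (-0.965), and ycf4, cemA and petA by 0.10, 0.03 and -0.01. The step in these values lay between psaI and ycf4. The gene rps15 was level in RNAi group 2, at 0.00, beside ndhH of the NDH complex at -0.76. The genes clpP and rpl20 lay on either side of the shared array in RNAi group 2, at 0.14 (0.145) and -0.37.

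**Figure D4:**
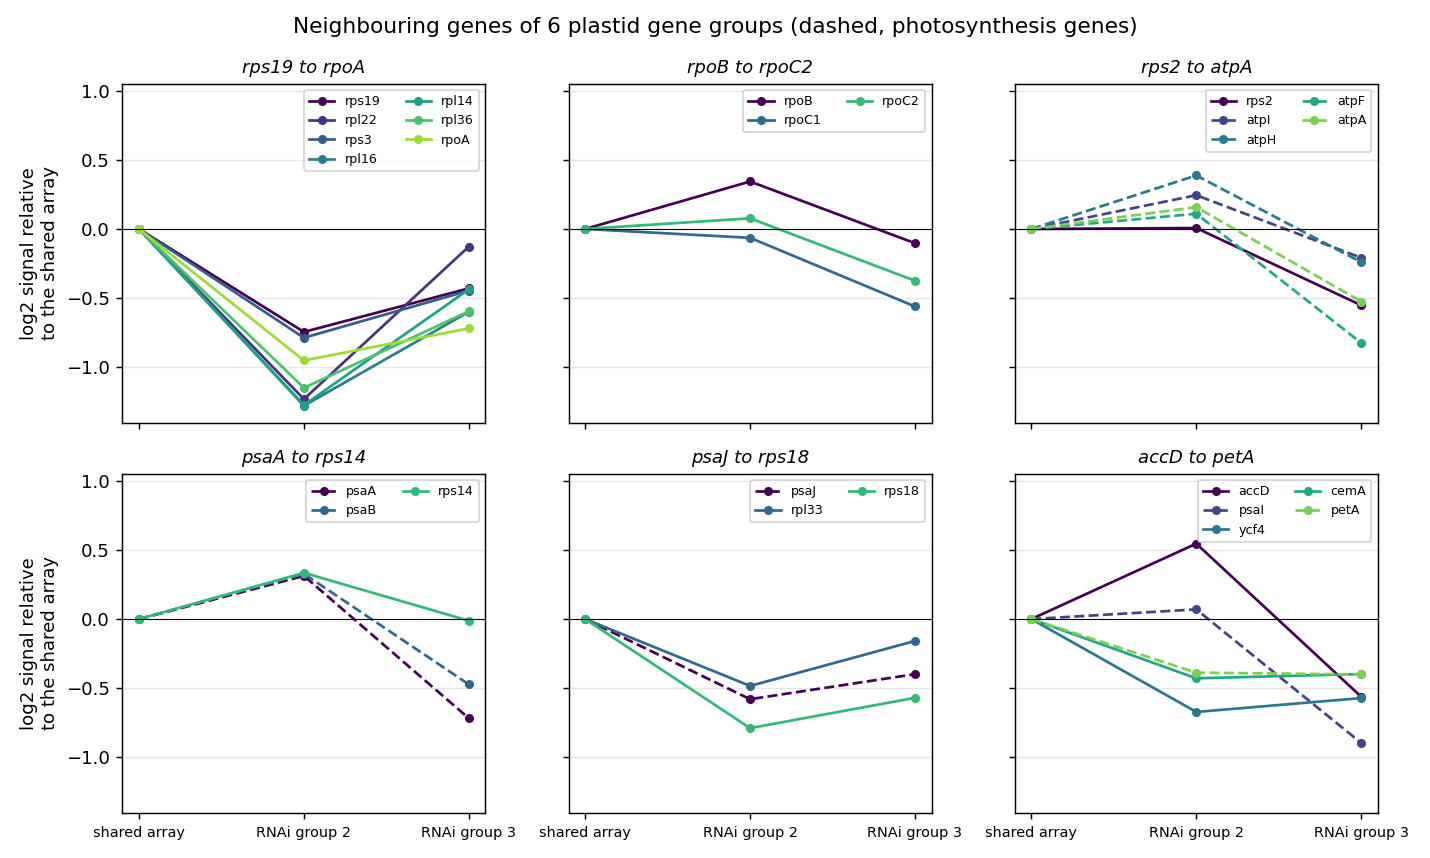
Log2 signal relative to the shared array, for 3 arrays (the shared array is 0 by definition), for the measured genes of 6 runs of plastid neighbours, with dashed lines for photosynthesis genes and lines only to join the points of a gene. All 7 genes from rps19 to rpoA are lowest in RNAi group 2, and accD and psaI part from ycf4, cemA and petA.

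Over all 64 pairs of plastid genes that are next to each other in the reference order and both measured, the median gap between the partners' log2 differences was 0.22 for RNAi group 2 against the shared array. For the 2282 other pairs of the 69 genes it was 0.48. For RNAi group 3 against group 2 the medians were 0.23 (0.235) for neighbours and 0.55 for other pairs. For RNAi group 3 against the shared array they were 0.26 and 0.24, so neighbours were no closer there. Among members alone, 13 neighbouring pairs had medians of 0.30 (0.305), 0.16 and 0.28 in these comparisons, taken in the order group 2 against shared, group 3 against group 2 and group 3 against shared. The 312 other pairs had 0.61, 0.58 and 0.20. Pairs share genes and arrays, so these are descriptions with no test.

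The 43 plastid-encoded photosynthesis genes were set beside the members. In RNAi group 2 their median was 0.04 against -0.40 for the members, with 20 of 43 and 17 of 26 lower than on the shared array (46.5% of all probe sets). In RNAi group 3 the medians were -0.50 and -0.41, with 43 of 43 and 25 of 26 lower (46.6% of all). Between the RNAi groups, 38 of 43 photosynthesis genes were lower in group 3 (median -0.57), against 12 of 26 members (median 0.06) and 50.7% of all probe sets. Without the genes from rps19 to rpoA the members came closer to the photosynthesis genes, with medians of 0.00 (-0.001) in RNAi group 2 and -0.35 (-0.353; 12 of 19 lower) between the RNAi groups. With each array centred on the photosynthesis genes, the median of all probe sets moved by 0.72 in RNAi group 3, the members' median became 0.30 and their direction turned, 25 of 26 being higher than on the shared array. The photosynthesis genes themselves then had a median of 0.21 with 31 of 43 higher, because the centre is the median of signals and not of differences. Relative to all probe sets, whose median became 0.76, both sets still lay low on that array. The difference between members and photosynthesis genes was not tested. In RNA from mixed organs, fewer plastid-rich cells, less plastid RNA per cell and a smaller labelled share of that RNA cannot be told apart.

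Nuclear genes that work with the members had few named probe sets. A planned list of nuclear genes for plastid ribosomal proteins is not among those counted here. No named probe set was found for 17 symbols of sigma factors and phage-type polymerases, for 26 of polymerase-associated proteins and 5 of acetyl-CoA carboxylase subunits. Of 15 Clp protease symbols 1 was measured, of 6 assembly factor symbols 2, and of 21 RNA processing symbols 1. None of these 4 genes passed limma in either direction (adjusted p = 0.9999 each). The CLPP4 signal, of a nuclear partner of clpP in the Clp protease core, was 3996.4 on the shared array, 2733.5 for group 2 and 4502.5 for group 3, with group 2 lowest. In contrast clpP itself was highest in group 2. The CcdA signal, of a thylakoid protein that acts with ccsA in cytochrome assembly, was 1467.5, 1419.7 and 1185.1. The signal of HCF101, an iron-sulphur scaffold for photosystem I, was 1854.3, 1170.0 and 1535.7, and that of the plastid intron splicing factor CAF1 was 368.9, 355.0 and 375.5.

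A list of 9 pentatricopeptide repeat proteins, nuclear factors that edit or splice plastid RNA, was added from the annotation. Of the 9, 6 passed the filter and 0 passed limma in either direction. The OTP70 signal, of a factor in rpoC1 splicing, was 71.7 on the shared array, 56.9 for group 2 and 93.6 for group 3. It was highest in group 3, where rpoC1 was lowest, as were rpoB and rpoC2, and a link was not tested. The CRR22 signal, of a factor that edits rpoB among other RNAs, was 87.3, 95 and 95.6. Mean log2 differences over the 6 ran from -0.30 for OTP84 (SE 0.61; 0.605) to 0.28 for CRR28 (SE 0.61; 0.615).

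Organ markers were read beside these differences. Of 16 leaf symbols 2 were named, RCA (rubisco activase) and LHCB4.1 (a light-harvesting protein). Their summed signals were 41771 on the shared array, 35416.6 for group 2 and 42549.4 for group 3. The lower sum in group 2 came mostly from LHCB4.1, with 20086.6, 14452.3 and 20157.2, while RCA had 21684.4, 20964.3 and 22392.2. Of 11 flower symbols 0 were named, so the flower part of the mix was checked only through pollen genes. Of 11 pollen symbols 7 were named, and their summed signals were 75.5, 2546.2 and 1058.5, with no marker at 0. ACT12 did not follow the sum in group 3, with 31.0 on the shared array, 46.3 for group 2 and 11.8 for group 3. ACT12 and XIE were under the filter. Of the 7 named pollen genes, 3 passed limma as higher in the RNAi groups: AT5G45880, AT5G07430 and AT3G07820 (adjusted p = 0.0478 each). Their signals on the shared array were 11.3, 1.9 and 3.0, below the filter level, so they passed the filter through the RNAi arrays. Under some other settings 0 probe sets passed limma, among them the floor of 32, the offset of 16 and no filter. Of 7 root symbols 3 were named, with sums of 46.7, 51.4 and 75.9, all 3 under the filter. The pollen sum was highest in RNAi group 2, where the cluster from rps19 to rpoA was lowest, and the part of organ composition in the members' differences was not tested.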

How the data were processed

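The deposited probe set intensity values are linear signals; the submitters' processing notes name GCOS and MAS5, without a version, as the tools the authors used. Total RNA was turned into biotin-labelled cRNA and detected with phycoerythrin, according to the protocols in the labels. Genes were named through GEO's platform annotation, updated by gene identifier through a TAIR10.1 reference table. The platform annotation lists 13513 probe sets with 1 gene, 503 with several, and leaves the others unnamed. From the reference table the order of plastid genes was taken and no coordinates. Sequences were not used here.

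The 4 deposited columns held 3 distinct arrays. Signals were put on the log2 scale without rescaling. The array maker's 64 controls were set aside from the 22810 probe sets, and a mean log2 signal over 5.307, the 30th percentile, was required. Differences were tested with limma 3.58.1 in R 4.3.3 (lmFit, then eBayes with an intensity trend), 2-sided, over all 15922 kept probe sets. The fit had 1 residual and 7.45 prior degrees of freedom and assumed that the shared array varies like the RNAi arrays. The spread between RNAi arrays 2 and 3, described as separate groups of plants, was drawn towards the intensity trend over all probe sets. Each p-value sets a difference against this moderated spread, in which the trend outweighed the 2 arrays. The fit was also run on simulated data, and its recovery of known changes is not reported here. A gene that did not pass limma is therefore not shown to be unchanged. The number of arrays limits the precision. For each pair of arrays, counts at 2-fold and 1.5-fold and medians are given with no test.

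The members, gene lists and runs of neighbours were chosen with earlier results of these data known. By the rule for named genes, values were to be printed for all polymerase genes and, within each other class, for the brightest gene, the 3 highest and 3 lowest mean differences from the shared array, and the 2 largest differences each way between RNAi groups; the remaining members are printed as well, beyond that rule. From each nuclear list the genes past the test, or otherwise the 2 largest differences, were named, and neighbours were set side by side. The signals of OTP70 and CRR22, factors for rpoC1 and rpoB, were printed beyond that rule. Alternatives were 3 scalings (quantile, median, plastid photosynthesis genes), low signals raised to 32, 16 added to all signals, the filter dropped or set at the 50th percentile, eBayes without trend or robust, each RNAi array left out, and all 4 columns as labelled. The list of pentatricopeptide repeat proteins and the setting without the rps19 to rpoA cluster were added after the data were seen.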

Additional observations from a re-analysis of the deposited data

How the results depend on the processing

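No member passed limma under any setting that allowed a test (smallest adjusted p 0.9999), and none of the nuclear partner genes counted here did. The 5 probe sets that passed became 0 with quantile normalisation, the floor of 32, the offset of 16, no filter, robust eBayes and all 4 columns, 13 without the intensity trend and 28 when centred on plastid photosynthesis genes; the cause was not tested. The members' median log2 differences, in the order group 2 against shared, group 3 against group 2 and RNAi mean against shared, became -0.323, -0.054 and -0.336 with quantile normalisation, and -0.522, 0.151 and -0.436 with median centring, where group 3 against shared became -0.444 and the 1 member above the shared array became 0. Centring on plastid photosynthesis genes left 1 member below and 8 above the shared array in both RNAi groups. It left 8 members 2-fold higher and 0 lower in group 3 than in group 2. The medians over all probe sets then became 0.756 for group 3 against shared and 0.755 for group 3 against group 2. Shares over all probe sets were not counted under this setting. With this centring the medians for all members were -0.448 (group 2 against shared), 0.826 (group 3 against group 2) and -0.025 (RNAi mean against shared). Group 3 against shared became 0.304 for all members, 0.25 for polymerase, 0.28 for small-subunit, 0.281 for large-subunit and 0.377 for other genes. Group 3 against group 2 became 0.317, 0.637, 1.319 and 0.609 for the same classes. The RNAi mean against shared became 0.104, -0.001, -0.344 and 0.302 for those classes, from -0.23, -0.335, -0.678 and -0.032. That setting raised the median of all probe sets by 0.717 in group 3, and median centring moved it by -0.123 in group 2. With all 4 columns the members' median against shared was -0.24, since the shared array then counts in both groups. Without an RNAi group it ran from -0.413 to -0.359; no residual degrees of freedom remain without group 2 or 3, so those are values with no test. At 1.5-fold in place of 2-fold, 10 members were lower in group 2 and 4 in group 3, and 3 were lower and 3 higher in group 3 than in group 2. Without the cluster from rps19 to rpoA, 10 members lay below the shared array in both RNAi groups. The medians then became -0.001 for group 2, -0.363 for group 3, -0.353 for group 3 against group 2 and -0.26 for the RNAi mean. They became 0.003 (group 2) and -0.354 (group 3 against group 2) for small-subunit genes and -0.371 (group 2), -0.158 (group 3) and 0.223 (group 3 against group 2) for large-subunit genes. Of 338 member values, 21 changed sign, none of them past the test. With quantile normalisation these were accD (0.006), clpP (0.041) and ccsA (0.028). When centred on photosynthesis genes they were rps2 (0.062), rpoC2 (0.185), rpoC1 (0.022), rps4 (0.228), accD (0.326), rpl33 (0.014), rpl20 (0.074), clpP (0.302), ccsA (0.308) and rps15 (0.152). With group 2 or group 3 left out, the values ran from -0.103 to 0.343 for rpoB, -0.012 to 0.334 for rps14, -0.551 to 0.007 for rps2, -0.374 to 0.077 for rpoC2, -0.448 to 0.236 for rps4, -0.561 to 0.545 for accD, -0.209 to 0.145 for clpP and -0.34 to 0.288 for ccsA. No paired analysis was possible because only the RNAi groups are numbered. All members passed the filter on dim signals, and their lowest signal was 409.9.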
